A study of Mus musculus with 4 samples.

Results

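The macrophage C-type lectin receptors examined here are 10 genes: Mrc1, Clec10a, Mgl2, Clec7a, Clec4d, Clec4e, Clec4n, Clec4a1, Clec4a2 and Clec5a. Their probes were found through the accession that the array design gives each probe, and 9 of the 10 genes had a probe, 1 each, among the 20832 gene symbols that could be named on the array. No probe was matched to Clec7a, the beta-glucan receptor dectin-1, which was not analysed here. All 9 probes were well above background on every array on which they were measured, and 8 of them were tested.

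RNA came from the cells of bronchoalveolar lavage fluid (BALF), the cells washed out of the airspaces of the lung, and was labelled with Cy3 and hybridized to 4 one-color mouse arrays. Both groups had received bleomycin intraperitoneally at 0.035 U/g with 2 injections per week, and cells were collected at day 22. The 2 wild-type arrays came from littermates and the 2 other arrays from mice labelled S1pr2-/-, in which the gene of sphingosine-1-phosphate receptor 2 was disrupted by targeting. Both genotypes were on a mixed strain background crossed back 1 time to C57BL/6J. The mice were 8 to 10 weeks old when they were challenged with bleomycin. The disruption was not limited to macrophages, and the BALF cells were not sorted although the tissue label names alveolar macrophages. None of the 4 arrays came from mice without bleomycin, so no effect of bleomycin can be read from them. Whether an array held cells of 1 mouse or of a pool is not given in the sources used here, and the p-values cover the spread between these arrays only.

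The level of a probe is given as log2 of its background-corrected intensity over the 75th percentile of its array, so that 0 is the level of that percentile, and a difference is the mean of the arrays labelled S1pr2-/- minus the wild-type mean on this log2 scale. Those percentiles lay between 2489 and 2817 intensity units, 0 spots were saturated, and the share of probes well above background ran from 67.6% to 72.2%. Replicates differed by 0.209 on average over the tested probes for wild-type and by 0.199 for the label S1pr2-/-. The probe of S1pr2 itself stood against the label. It had levels of -0.13 and -0.16 in wild-type and of 2.67 and 2.54 on the arrays labelled S1pr2-/-, a difference of 2.75 (SE 0.072, limma adjusted p = 0.338). Whether this probe lies inside the disrupted part of the gene was not given in the sources used here, so every direction below refers to the labels. Of 27161 tested probes, 0.00% passed an adjusted p under 0.05, and 9.59% had an unadjusted p under 0.05. A permutation test of a single probe with 2 arrays against 2 cannot give a p below 0.333.

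C-type lectin receptors are surface proteins with which macrophages bind sugars on microbes, on dead cells and on the body's own glycoproteins. Some of them mainly take up their ligands, such as the mannose receptor and the galactose-type lectins, and these are widely used as marks of macrophages exposed to interleukin-4 or interleukin-13. Others start inflammatory signalling through the kinase Syk, which is reached through the adaptor chains Fcer1g (the Fc receptor gamma chain) or Tyrobp (DAP12), whereas receptors with an inhibitory motif in their own tail dampen activation. In the lung, alveolar macrophages are rich in the mannose receptor.

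The receptors differed little between the genotypes. Of the 8 tested members, 0 passed the adjusted test and 0 had an unadjusted p under 0.05, either in limma or in the t-test of the methods, and adjusted p-values ran from 0.552 to 0.954. Among all tested probes, 5.59% were lower and the rest of the 9.59% higher at that unadjusted p, and 1.62% were lower and 0.486% higher when a 1.5-fold difference was also asked for, which 0 members met. The difference was below 0 for 6 members and above 0 for 2, and the median was -0.07, beside -0.0029 over all tested probes. The median absolute difference was 0.138 for the members and 0.117 for all tested probes. Both arrays labelled S1pr2-/- lay below both wild-type arrays for 1 member, Clec4a2, a pattern that 21.7% of all tested probes showed. They lay above both wild-type arrays for 0 members, against 20.0% of all tested probes, and the levels overlapped for the remaining 7. The 95% interval of the difference stayed within a 2-fold change in either direction for 7 of the 8, and within 1.5-fold for 4, which were Mrc1, Clec4e, Clec4n and Clec5a.

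**Figure D1:**
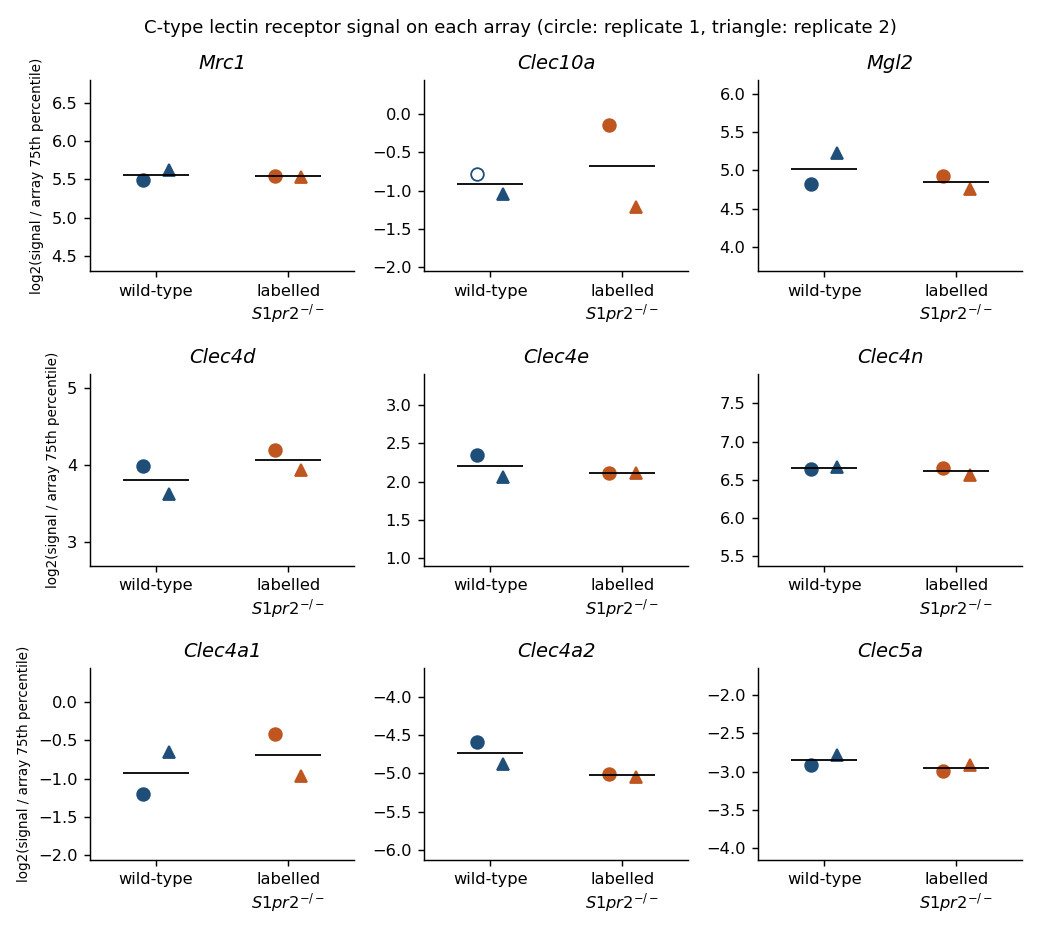
Level of each C-type lectin receptor probe on each array, as log2 of the signal over the 75th percentile of the array (vertical axis, of equal length in all panels but centred on each probe), in wild-type mice (blue) and mice labelled S1pr2-/- (orange), all with bleomycin. Circles are replicate 1, triangles replicate 2, lines the means, and the open circle of Clec10a is a spot that the scanner software marked as an outlier; Clec4a2 is the member whose groups do not overlap.

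Mrc1 encodes the mannose receptor CD206, an endocytic receptor for mannose-rich glycoproteins. Its levels were 5.49 and 5.62 in wild-type and 5.55 and 5.54 on the arrays labelled S1pr2-/-. The values of the arrays labelled S1pr2-/- lay between the wild-type values. The difference was -0.02 (SE 0.073, 95% interval -0.24 to 0.21, limma adjusted p = 0.954), so that an increase or a decrease by 1.5-fold lay outside the interval. In linear terms, the signal ran from 45.0 to 49.2 times the 75th percentile over the 4 arrays.

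Mgl2 encodes CD301b, a lectin for galactose and N-acetylgalactosamine that is found on macrophages and on dendritic cells. Its levels were 4.82 and 5.22 in wild-type and 4.93 and 4.76 on the arrays labelled S1pr2-/-. Wild-type replicate 2 was the highest array and the other 3 lay close together, so that the wild-type replicates stood 0.41 apart, further than the genotype means. The difference was -0.18 (SE 0.181, 95% interval -0.73 to 0.37, limma adjusted p = 0.745).

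Clec10a encodes the closely related lectin CD301a, also called MGL1. The spot on wild-type replicate 1 carried a flag for uneven pixels and was left out, so this member was not tested. The remaining levels were -1.05 in wild-type replicate 2 and -0.15 and -1.22 on the arrays labelled S1pr2-/-. The arrays labelled S1pr2-/- thus stood on both sides of the wild-type array, with replicate 1 at 2.11-fold the signal of replicate 2, the widest replicate gap among the 9 members. With the flagged spot kept, the wild-type level of replicate 1 was -0.78 and the difference 0.23 (SE 0.436, 95% interval -1.09 to 1.55, limma adjusted p = 0.864). That interval spans more than a 2-fold change in both directions. The 2 galactose-type lectins are neighbouring paralogs on chromosome 11, and whether their probes read each other's transcript was not tested.

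The promoters of Mrc1, Mgl2 and Retnla are shown because these genes are often counted together among those induced by interleukin-4, while the difference of Retnla in these arrays, given further on, was of another size than those of the lectins. The windows run from 250 bases before the RefSeq start site to 50 bases after it in the assembly GRCm38.p6, all on the plus strand, at chr2:14229164-14229463 for Mrc1, chr11:70130107-70130406 for Mgl2 and chr16:48842359-48842658 for Retnla. Capitals mark a match to TTCNNNNGAA, the spacing that STAT6 prefers, which reads the same on both strands.
Mrc1: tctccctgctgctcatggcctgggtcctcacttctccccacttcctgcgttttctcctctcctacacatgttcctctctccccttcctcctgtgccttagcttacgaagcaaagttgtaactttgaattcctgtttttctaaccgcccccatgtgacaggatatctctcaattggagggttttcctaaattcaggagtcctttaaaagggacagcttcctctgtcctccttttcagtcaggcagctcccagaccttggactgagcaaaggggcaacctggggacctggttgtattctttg
Mgl2: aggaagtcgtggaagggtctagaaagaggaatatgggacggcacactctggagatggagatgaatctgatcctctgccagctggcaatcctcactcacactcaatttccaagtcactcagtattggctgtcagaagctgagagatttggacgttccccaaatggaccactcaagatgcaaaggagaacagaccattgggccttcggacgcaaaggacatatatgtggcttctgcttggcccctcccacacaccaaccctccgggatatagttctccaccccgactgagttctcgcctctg
Retnla: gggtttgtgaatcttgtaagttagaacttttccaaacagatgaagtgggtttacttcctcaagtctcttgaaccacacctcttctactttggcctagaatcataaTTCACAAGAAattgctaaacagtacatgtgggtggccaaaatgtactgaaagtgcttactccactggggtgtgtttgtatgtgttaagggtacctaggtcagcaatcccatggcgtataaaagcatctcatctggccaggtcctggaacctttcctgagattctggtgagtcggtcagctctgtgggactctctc
The window of Retnla held the match TTCACAAGAA starting at position -145 from the start site, and those of Mrc1 and Mgl2 held none. Windows were at hand for 8 of the 10 members, and 3 of them held the motif (Clec5a, Clec4a1 and Clec7a), as did 6.95% of 32851 promoter windows of this length. Of these, Clec5a and Clec4a1 had differences of -0.10 and 0.23. No window of another gene of interleukin-4-type activation besides Retnla is shown, and whether the motif bears on any difference was not tested. A match is a description of letters and not a binding site, and its absence from a window says nothing about binding elsewhere.

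Among the receptors that signal through Syk, Clec4n encodes dectin-2, which binds fungal mannans and is coupled to the Fc receptor gamma chain. Its levels were 6.64 and 6.67 in wild-type and 6.66 and 6.56 on the arrays labelled S1pr2-/-. The 4 arrays lay within 94.3 to 101.5 times the 75th percentile. The difference was -0.04 (SE 0.067, 95% interval -0.25 to 0.16, limma adjusted p = 0.832), the narrowest interval among the members.

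Clec4e encodes Mincle, which recognizes mycobacterial glycolipids and material from dead cells. Its levels were 2.34 and 2.06 in wild-type and 2.11 and 2.11 on the arrays labelled S1pr2-/-. The arrays labelled S1pr2-/- were almost identical and lay between the wild-type arrays. The difference was -0.09 (SE 0.123, 95% interval -0.47 to 0.28, limma adjusted p = 0.806).

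Clec4d encodes MCL, a partner chain of Mincle. Its levels were 3.99 and 3.62 in wild-type and 4.20 and 3.94 on the arrays labelled S1pr2-/-. Wild-type replicate 1 exceeded replicate 2 of the label S1pr2-/-, so the groups overlapped. The difference was 0.26 (SE 0.186, 95% interval -0.30 to 0.83, limma adjusted p = 0.669). It was 0.076 without wild-type replicate 2 and 0.45 without wild-type replicate 1. Clec4d and Clec4e thus had differences of opposite sign, and neither passed the test.

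Clec5a encodes MDL-1, a receptor of myeloid cells that signals through Tyrobp. Its levels were -2.92 and -2.79 in wild-type and -2.99 and -2.91 on the arrays labelled S1pr2-/-. The ranges touched, with replicate 2 of the label S1pr2-/- just above wild-type replicate 1. The difference was -0.10 (SE 0.080, 95% interval -0.34 to 0.15, limma adjusted p = 0.696).

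Clec4a2 encodes DCIR, whose cytoplasmic tail carries an inhibitory motif that recruits phosphatases such as Ptpn6. Its levels were -4.60 and -4.87 in wild-type and -5.00 and -5.04 on the arrays labelled S1pr2-/-. The probe was dim, with 78.1 to 105.6 intensity units, but well above background on all 4 arrays. The difference was -0.29 (SE 0.121, 95% interval -0.66 to 0.08), with a limma p of 0.0900 and an adjusted p of 0.552. In size this exceeded the other members with the 75th percentile scaling, but not after quantile normalization (-0.17, against 0.26 for Clec4d) or normexp background correction (-0.20, against 0.26 for Clec4d). Of all tested probes, 17.2% differed at least as much. Without wild-type replicate 2, the difference was -0.43, smaller in size than for Clec4a1 (0.50). Without wild-type replicate 1 it was -0.15, smaller in size than for Clec4d (0.45). Without replicate 2 of the label S1pr2-/- it was -0.27, smaller in size than for Clec4a1 (0.50) and Clec4d (0.39). Only without replicate 1 of that label, at -0.31, did it stay the largest in size.

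Clec4a1, a relative of DCIR, had levels of -1.20 and -0.65 in wild-type and of -0.42 and -0.96 on the arrays labelled S1pr2-/-. Replicates of either genotype stood about 0.55 apart, more than the genotype means, and the groups overlapped. The difference was 0.23 (SE 0.306, 95% interval -0.70 to 1.16, limma adjusted p = 0.801). This was the widest interval among the tested members, and it does not exclude a 2-fold increase.

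**Figure D2:**
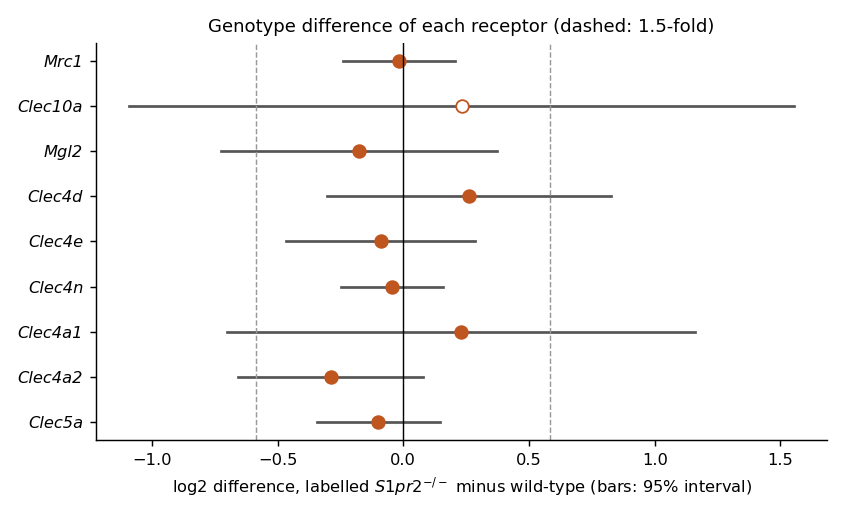
Difference of each C-type lectin receptor probe, arrays labelled S1pr2-/- minus wild-type (horizontal axis, log2 units), with 2 arrays per genotype; bars are 95% intervals from limma and dashed lines mark 1.5-fold. Every interval includes 0, and the open point of Clec10a includes a spot marked as an outlier.

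The spread between replicates exceeded the difference between genotypes in at least 1 genotype for 7 of the 8 tested members, the exception being Clec4a2. The wild-type spread did so for 6 of them and the spread of the arrays labelled S1pr2-/- for 3. On average over the tested members, wild-type replicates differed by 0.271 and replicates of the label S1pr2-/- by 0.152. Replicate 1 of the label S1pr2-/- lay above replicate 2 for 7 of the 8 members, compared with 44.7% of all tested probes. Replicate 2 minus replicate 1 of this label was -0.0060 for Clec4e, -0.011 for Mrc1, -0.04 for Clec4a2, -0.10 for Clec4n, -0.17 for Mgl2, -0.26 for Clec4d and -0.54 for Clec4a1, and 0.08 for Clec5a.

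**Figure D3:**
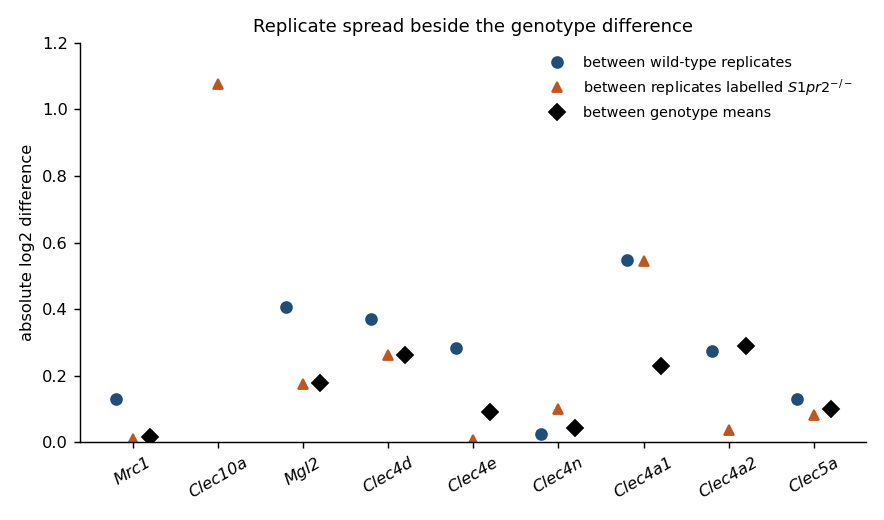
Absolute log2 difference (vertical axis) between the 2 wild-type replicates (circles), between the 2 replicates labelled S1pr2-/- (triangles) and between the genotype means (diamonds) for each C-type lectin receptor. Clec10a has its only point between the replicates labelled S1pr2-/-, and Clec4a2 is the only member whose diamond lies above both other points.

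The adaptor chains Fcer1g and Tyrobp, which carry the receptors' signal, were also near equal. Fcer1g had levels of 6.81 and 6.84 in wild-type and of 6.87 and 6.95 on the arrays labelled S1pr2-/- (difference 0.09, 95% interval -0.11 to 0.28), and Tyrobp of 6.92 and 7.01 against 7.02 and 6.997 (0.04, -0.15 to 0.23). Syk had levels of 4.87 and 4.81 in wild-type and of 4.70 and 4.70 on the arrays labelled S1pr2-/-. Both arrays labelled S1pr2-/- lay below both wild-type arrays for Syk, as they did for 21.7% of all tested probes. The difference was -0.14 (SE 0.058, 95% interval -0.32 to 0.04, limma adjusted p = 0.550). Card9, the scaffold below Syk, had levels of -1.76 and -1.85 against -2.30 and -1.82. Its difference of -0.26 (SE 0.200, 95% interval -0.86 to 0.35, limma adjusted p = 0.693) rested on replicate 1 of the label S1pr2-/-.

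Of the 28 adaptor and signalling genes listed, all were tested, and 13 had a difference below 0 and 15 above 0. An unadjusted limma p under 0.05 was reached by 0 of them in either direction, beside 9.59% of all tested probes. Their median was 0.0045 and their range -0.26 to 0.21. Both arrays labelled S1pr2-/- lay below wild-type for 7 of them and above for 5, which are shares close to those of all probes. The largest differences after Card9 were those of Vav3 (0.21), the NF-kappaB subunits Rel (-0.21) and Nfkb1 (-0.19), the ubiquitin ligase Cbl (-0.20) and Rela (-0.18). The levels of Rel, from -6.17 to -6.52, lay near the floor of the scale at -6.64.

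Receptors that work beside the lectins in recognition and uptake gave 14 tested genes, 5 with a difference below 0 and 9 above, and a median of 0.07. Mertk, a kinase receptor for the uptake of dying cells, had levels of 2.52 and 2.52 in wild-type and of 2.81 and 2.78 on the arrays labelled S1pr2-/-. It was the only gene of this list with an unadjusted limma p under 0.05 (0.0120), beside 9.59% of all tested probes. The difference of Mertk was 0.28 (SE 0.055, limma adjusted p = 0.508). Stab1, a scavenger receptor, had a difference of 0.60 (SE 0.450) carried by replicate 1 of the label S1pr2-/-. The phosphatidylserine receptor Timd4 (0.26), the lipoprotein receptor Scarb1 (0.26), the kinase receptor Axl (0.20) and the integrin chain Itgb2 (0.20) had smaller differences with adjusted p-values between 0.521 and 0.820. The galactose-binding lectin Lgals3, which is not of the C type, had a difference of -0.17 (SE 0.093). The probe of Cd163, a hemoglobin scavenger receptor, was well above background on 0 of the 4 arrays.

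In the wider family, 35 of 47 other C-type lectin genes were tested, 15 with a difference below 0 and 20 above, with a median of 0.03. An unadjusted p under 0.05 was reached by 3 lower and 3 higher genes, beside 9.59% of all probes in either direction, and 0 passed after adjustment. Clec4b2 was the only gene lower past 1.5-fold at that p and Clec4a4 the only one higher, beside 1.62% and 0.486% of all probes. These counts moved between 0 and 3 lower and between 0 and 2 higher genes over the alternatives run, with 0 lower without wild-type replicate 2 or replicate 1 of the label S1pr2-/- and 3 without wild-type replicate 1. The count of higher genes was 0 without replicate 1 of either genotype and 2 without replicate 2 of either. The largest difference in size was that of Cd209e, a DC-SIGN paralog, with levels of -4.56 and -2.85 in wild-type and of -5.15 and -6.24 on the arrays labelled S1pr2-/-. Its wild-type replicates stood 1.71 apart, and the difference of -1.98 (SE 0.793) had a limma adjusted p of 0.543. Clec2d (-0.76), Clec4g (0.65) and Clec2l (-0.58) had adjusted p-values of 0.541, 0.537 and 0.513.

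Of the members, 7 are on chromosome 6, 5 of them in a run of 9 protein-coding lectin genes that RefSeq lists in the order Clec4a1, Clec4a3, Clec4a4, Clec4b1, Clec4a2, Clec4b2, Clec4n, Clec4d and Clec4e. All 9 genes were tested, 4 with a difference below 0 and 5 above, from -0.75 to 0.60. Clec4a4 had levels of -4.70 and -4.61 in wild-type and of -3.97 and -4.14 on the arrays labelled S1pr2-/- (difference 0.60, SE 0.090, unadjusted limma p of 0.00512, adjusted p of 0.508). Clec4b2, 3 places along, had levels of -5.86 and -5.33 against -6.27 and -6.42 (difference -0.75, SE 0.220, unadjusted limma p of 0.0366, adjusted p of 0.517). Its levels on the arrays labelled S1pr2-/- lay near the floor of the scale at -6.64, though well above background. The other neighbours Clec4a3 and Clec4b1 had differences of 0.19 and 0.11. The genes of this run therefore did not share 1 direction, and whether probes of such similar paralogs cross-read was not tested.

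Among genes of interleukin-4-type macrophage activation, larger differences were found. Of 22 such genes, 18 had a difference below 0, and the median was -0.56. At an unadjusted limma p under 0.05, 9 were lower past 1.5-fold and 0 higher, beside 1.62% and 0.486% of all tested probes. For 17 of the 22, neither array labelled S1pr2-/- reached the lower wild-type array, which held for 21.7% of all probes. None passed the adjusted test. The study had chosen several of these genes on these same arrays, among them Ccl24, Alox15, Retnla, Socs1, Ccl17 and Cish, and their count is therefore not independent evidence of the direction.

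Retnla, a secreted resistin-like protein, had levels of 2.99 and 4.51 in wild-type and of 0.94 and 0.34 on the arrays labelled S1pr2-/- (difference -3.11, 95% interval -5.05 to -1.16). Arg1, an arginine-degrading enzyme, had levels of 2.00 and 2.99 against 1.24 and 0.41 (-1.67, -3.20 to -0.13). The chemokine Ccl17 had levels of 4.07 and 4.64 against 3.22 and 3.15 (-1.17, -1.87 to -0.48). The arrays labelled S1pr2-/- were the lower ones for each of these 3 genes, and wild-type replicate 2 was the highest array for all 3. Among the tested lectins, that array was also the highest for Mrc1, Mgl2, Clec4n and Clec5a, but not for Clec4d, Clec4e, Clec4a1 or Clec4a2. The share of all tested probes with this pattern was not determined. The chemokine Ccl24 was at least 294-fold lower, a bound because 1 of the arrays labelled S1pr2-/- lay at the floor of the scale. The lipoxygenase Alox15 (-4.83) and the cytokine signalling inhibitor Socs1 (-1.74) also differed at an unadjusted p.

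Other genes of the same list had differences as small as those of the lectins. The chitinase-like protein Chil3 had levels of 7.69 and 7.86 in wild-type and of 7.64 and 7.85 on the arrays labelled S1pr2-/- (difference -0.03, 95% interval -0.39 to 0.33). The receptor chains Il4ra and Il13ra1 had differences of -0.28 and 0.14, and the transcription factor Stat6 of 0.07.

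**Figure D4:**
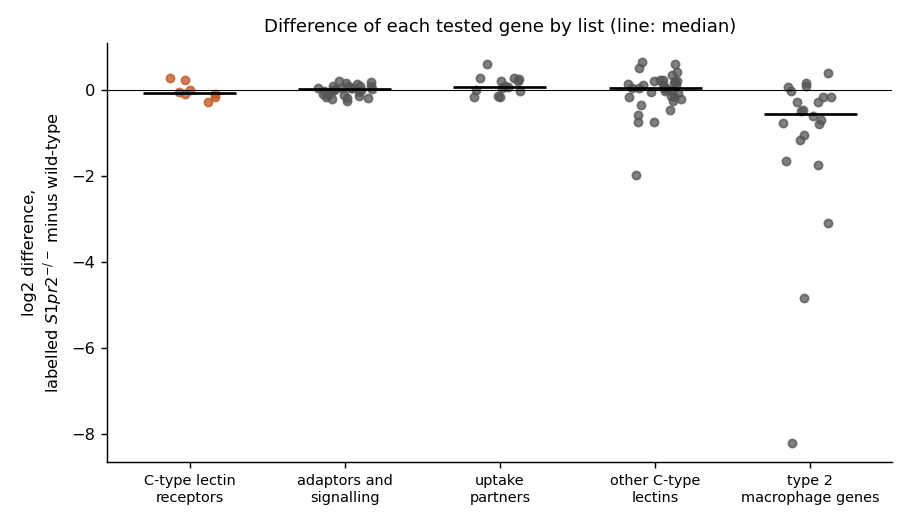
Difference of each tested gene (points, log2 units, arrays labelled S1pr2-/- minus wild-type) in 5 gene lists, with the median as a line. The C-type lectin receptors lie between -0.29 and 0.26 around a median of -0.07, while type 2 macrophage genes have a median of -0.56; the lowest point, Ccl24, includes an array at the floor.

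Markers of other cells moved beside these values. All 12 markers of alveolar macrophages were well above background on every array, with a median difference of -0.02. Markers of monocyte-derived macrophages had a median of 0.28, with 10 of 13 above 0. The 8 tested eosinophil markers, which include Alox15, were all lower on the arrays labelled S1pr2-/-, with a median of -4.50, and their summed signal was 10.04 and 27.8 times the 75th percentile in wild-type against 2.66 and 4.09. Eosinophil markers were higher in wild-type replicate 2 than in replicate 1 for 8 of 8 genes, as were 17 of 22 type 2 macrophage genes and 5 of 8 lectins, beside 43.9% of all probes. Their part in the results was not tested. In bulk RNA, fewer cells of a type and less RNA per cell cannot be told apart.

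Several marker lists, like Clec10a, had higher levels in replicate 1 of the label S1pr2-/- than in replicate 2, a pattern of 44.7% of all probes. This held for 11 of 13 monocyte-derived markers, with summed signals of 289.8 and 224.7, for 5 of 5 NK cell markers (4.27 and 2.16) and for 5 of 6 T cell markers (12.2 and 8.99). For the monocyte-derived markers, wild-type replicate 2 exceeded replicate 1 for 2 of 13, with 274.0 in replicate 1 and 194.7 in replicate 2. A large part of the replicate gaps in the monocyte-derived sums came from Apoe. Its levels were 6.16 and 3.74 in wild-type and 6.04 and 5.14 on the arrays labelled S1pr2-/-. Markers of dendritic cells, which also carry these lectins, had a median difference of -0.21, with 5 below 0 and 4 above. Their summed signals were 69.1 and 66.5 in wild-type and 56.1 and 57.2 on the arrays labelled S1pr2-/-. These sums came mostly from the probe of Siglech, with levels of 5.82 and 5.66 against 5.50 and 5.55. The part of these cell types in the levels of the lectins was not tested. Summed signals can be set side by side between arrays but not between lists, since probes differ. Over the 4 arrays they ran from 68.7 to 101.6 for neutrophil markers, from 8.99 to 13.8 for T cells, from 2.16 to 7.89 for NK cells and from 0.484 to 1.64 for B cells, with median differences of -0.30, -0.36, -0.04 and -0.69. They ran from 24.0 to 40.6 for epithelial cells and from 17.7 to 33.4 for erythroid cells, with median differences of -0.34 and 0.44. Of 6 markers of mast cells or basophils, 3 were well above background on 0 arrays.

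The genes whose pattern over the 4 arrays was nearest to that of Clec4a2, the member with the largest difference in size at the 75th percentile scaling, were Frmd5, Nudt17, Prkd2, Slc16a7 and E4f1. Nearness was measured as the Euclidean distance between the log2 levels minus their mean over the 4 arrays, and it ran from 0.0227 for Frmd5 to 0.0349 for E4f1. Counting probes without a further gene name, 8 probes lay at least that near. With 4 arrays this likeness is a description only.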

How the data were processed

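The authors deposited, for each array, spot intensity values written by Feature Extraction (version 10.7.3.1 per the labels, 11.0.1.1 per the file headers), with the background corrected, and their own normalized log2 table. Against the scanner values, that log2 table held log2 of signal over the 75th percentile minus the wild-type mean, plus an array constant. With this constant (at most 0.0123) removed, 99.75% of 39360 probes lay within 0.01. The deposited log2 table served as an alternative. All arrays lay on 1 slide with 1 scan.

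Processed signals were divided by the 75th percentile of the array, floored at 0.01 and log2-transformed. Spots with an outlier flag (115 to 273 per array) were left out. Spots of a probe were averaged, and the probe with the highest mean stood for a gene of the lists. Probes with values on all 4 arrays were tested if both arrays of at least 1 genotype were well above background, using limma 3.58.1 (lmFit and eBayes) in R 4.3.3 with Benjamini-Hochberg adjustment over 27161 probes. A fold against an array at the floor is given as a bound. RefSeq accessions (GRCm38.p6) named 69.6% of 39429 probes, and promoter windows are from RefSeq. Named genes are the members, S1pr2, up to 6 genes per list with the largest differences, the adaptors Fcer1g, Tyrobp, Syk and Card9, and the 5 nearest profiles; Chil3, Il4ra, Il13ra1, Stat6, Cish, Lgals3, Cd163, Clec4a3 and Clec4b1 were named after their values were seen. The members and lists were chosen with earlier results of these data known. The script was tested on simulated data. Alternatives were other normalizations, background corrections, floors, filters, variance models, tests and fold limits, the replicate number as a block and each array left out. For normexp, the median spot signal was used because the mean signal is absent from the columns used.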

Additional observations from a re-analysis of the deposited data

How the results depend on the processing

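With 2 arrays per genotype, 0 of 27161 tested probes passed the adjusted test. Among those not passing was the S1pr2 probe, with a difference of 2.75 (SE 0.072, limma adjusted p = 0.338). A count of 0 receptors past this test therefore does not show that their levels were equal. The number of C-type lectin receptors past the adjusted test was 0 in all 16 alternatives run, and the numbers past 1.5-fold at an unadjusted p were 0 in all 18. Quantile normalization turned the difference of Mrc1 to 0.019 and of Clec4n to 0.028, and cyclic loess that of Mrc1 to 0.0085. Leaving out each array in turn gave -0.081 to 0.048 for Mrc1, -0.38 to 0.026 for Mgl2, -0.23 to 0.052 for Clec4e, -0.093 to 0.0071 for Clec4n, -0.044 to 0.50 for Clec4a1, 0.076 to 0.45 for Clec4d, -0.43 to -0.15 for Clec4a2 and -0.16 to -0.034 for Clec5a. The sign turned without wild-type replicate 2 (Mrc1, Mgl2), wild-type replicate 1 (Clec4e, Clec4a1), or replicate 2 (Clec4n) or 1 (Clec4a1) of the label S1pr2-/-. The number of type 2 macrophage genes lower past 1.5-fold was 1 with the t-test of the methods and ran from 2 to 11 with an array left out, being 2 without either array labelled S1pr2-/-. The cause was not tested.

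The labels do not say that replicate numbers pair the arrays. The deviations of same-numbered arrays from their genotype means had a correlation of 0.187 over the 27161 tested probes. With the replicate number as a block, 0 lectin receptors passed and 9 type 2 macrophage genes were lower past 1.5-fold, as without it, while Clec4d came to an unadjusted p of 0.0505 and an adjusted p of 0.529 in limma.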
